A study of Mus musculus with 5 samples.

Results

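The comparison described here is that of diet in mouse liver under all-trans retinoic acid: the array of the HFHFr-FA group was set against the array of the HFHFr-NA group, which are 2 of the 5 arrays of the study. Both were chosen by their titles, and no measured value entered the choice. HFHFr stands for a high-fat, high-fructose diet. All mice were male C57BL/6J mice of 25 weeks, and each array carried the pooled liver RNA of 5 mice, read in 1 colour (Cy3) on a whole-genome oligonucleotide array. HFHFr-NA mice were given the HFHFr diet for 16 weeks and then normal diet with all-trans retinoic acid for 4 weeks; by the labels they had recovered from insulin resistance. HFHFr-FA mice were given the same diet for 16 weeks and then stayed on it, with all-trans retinoic acid added, for 4 weeks; by the labels they were not insulin resistant and showed slight steatosis of the liver. The 3 other arrays serve as reference. HFHFr-N mice went from the HFHFr diet (16 weeks) to normal diet (4 weeks) without retinoic acid and were insulin resistant. HFHFr-F mice had the HFHFr diet for 20 weeks and were severely insulin resistant, and the control mice were untreated.

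Retinoic acid is the form of vitamin A that acts on genes. It binds retinoic acid receptors, which sit on DNA as partners of retinoid X receptors and switch target genes, among them the gene of Cyp26a1, the enzyme that clears retinoic acid in the liver. The liver stores vitamin A in stellate cells, and retinoid X receptors also pair there with the receptors for fatty acids, bile acids and oxysterols. A diet rich in fat and fructose loads hepatocytes with triglyceride and is known to draw macrophages into the liver.

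With 1 pooled array per group no test between the groups was possible, so every value below is a level or a ratio with no replicate. Levels are log2 signals, centred by subtracting each array's own 75th percentile, and a ratio is the difference of 2 such levels. Probes spotted 10 times on each array had a standard deviation of 0.0659 to 0.086 (log2) between their spots, which gives a spread of 0.1 for a ratio; this covers spotting and reading only, not mice, pools or labelling. The HFHFr-FA array lay alone on its slide and in its scan, and the other 4 shared a slide and a scan. Slide and scan therefore cannot be told apart from the group, whereas HFHFr-F and HFHFr-N lay on the same slide. Bright patches, where neighbouring dim spots were also raised, held 399 transcript spots on HFHFr-F. They held 14 on HFHFr-N, 56 on HFHFr-NA and 38 on HFHFr-FA. Between 46.7% and 49.4% of the 43379 spots for transcripts were well above background on each array. The 75th percentile of the signal ran from 172.2 to 222.6 units, and no spot was saturated. All 20 hepatocyte markers matched on the array were well above background on all 5 arrays.

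Of 15043 genes measured on the HFHFr-FA or the HFHFr-NA array, 492 were at least 2-fold higher in HFHFr-FA, which is 3.27% of those measured, and 375 were at least 2-fold lower, which is 2.49%. Higher genes made up 56.7% of these calls; that share was 66.9% after normexp background correction with quantile normalization and 45.9% with no detection filter. The median ratio over all genes was -0.10. Among the 13904 genes well above background on both arrays, 5% lay below -0.74 and 5% above 0.79. At least 4-fold differences were found for 37 genes upward and 53 downward. For 100 of the higher and 109 of the lower genes one of the arrays was not well above background, and their ratio is a bound.

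The largest upward ratio was that of Cdkn1a, which encodes the cell cycle inhibitor p21 and was 12.7-fold higher in HFHFr-FA (log2 ratio 3.67; probe at mm9 chr17:29237377-29237436). Cdkn1a read -0.69 on the control array, -2.07 on HFHFr-N, -1.29 on HFHFr-NA, 1.99 on HFHFr-F and 2.37 on HFHFr-FA. Both arrays of mice still on the HFHFr diet thus lay far above the 3 others, with and without retinoic acid. Pdk4, the kinase that shuts off pyruvate dehydrogenase and turns the cell from glucose to fat as fuel, was 11-fold higher (mm9 chr6:5433441-5433500). Its levels in the same order were 1.31, 0.02, 0.45, 2.34 and 3.91, with HFHFr-FA the highest of the 5. Pdk4 is known to be induced by fasting, and the sources used here do not say whether the mice were fasted. Atf3, a stress-induced transcription factor, was 7.36-fold higher, at -2.91, -2.02, -2.33, 0.52 and 0.55. Its ratio without retinoic acid, HFHFr-F over HFHFr-N, was 2.54 against 2.88 with it. Igfbp1, a secreted binder of insulin-like growth factors that insulin represses, was 5.45-fold higher and read 6.26, 4.78, 6.45, 6.61 and 8.90.

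The levels on the other arrays place these genes. Among the 13131 genes well above background on all 5 arrays, 348 were higher in HFHFr-FA than in HFHFr-NA by 2-fold or more and 250 lower. For 286 of the 348 (82.2%) both arrays on the HFHFr diet lay above both arrays returned to normal diet; over all genes the share was 14.4%. For 185 of the 250 (74.0%) both lay below, against 32.6% over all genes. Since the rule for these genes fixes the order of HFHFr-FA and HFHFr-NA, part of these shares comes from it. HFHFr-NA was within 2-fold of the control for 303 of the 348 (87.1%) and 194 of the 250 (77.6%), against 97.7% of all 13131 genes. HFHFr-FA was within 2-fold of the control for 139 (39.9%) and 176 (70.4%), against 94.8% of all genes. These genes were picked for a difference of 2-fold or more between HFHFr-FA and HFHFr-NA. Shares near the control below those of all genes therefore also come in part from that rule. HFHFr-FA lay at least 2-fold above all 4 other arrays for 29 of the 13131 genes (0.221%) and at least 2-fold below them for 23 (0.175%). For HFHFr-NA the same counts were 17 (0.129%) and 6 (0.0457%).

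The 2 diet contrasts share no array. Over 14319 genes measured in both, 163 were at least 2-fold higher on the HFHFr diet with and without retinoic acid, which is 36.2% of the genes higher with it and 33.0% of those higher without it. Genes lower in both numbered 47, or 14.9% and 17.3% of the respective lists. Over 13400 genes well above background on all 4 arrays the ratios correlated with a Pearson r of 0.42 and a Spearman rho of 0.343, given as a description across genes, which are not independent. The ratio of HFHFr-F over HFHFr-N had its own background of 3.64% of 14799 genes higher and 2.16% lower.

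**Figure D1:**
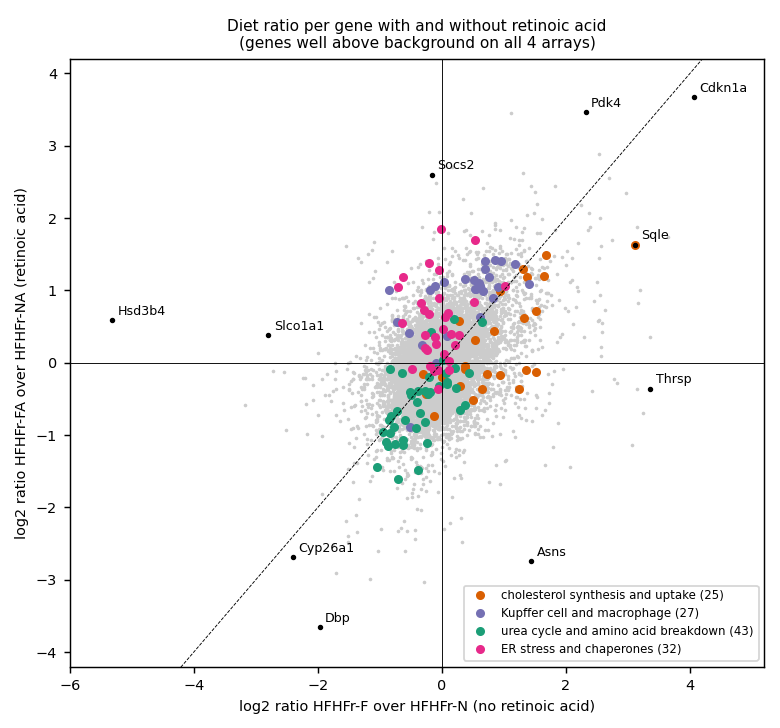
Each grey point is 1 of 13400 genes, with the log2 diet ratio without retinoic acid (HFHFr-F over HFHFr-N) on the x axis and with it (HFHFr-FA over HFHFr-NA) on the y axis; 4 gene lists are coloured, the dashed line marks equal ratios, and 10 genes are named. Cdkn1a and Pdk4 lie high on both axes, Thrsp and Hsd3b4 lie far from 0 on the x axis (3.36 and -5.32), and Asns is lower with retinoic acid (-2.74) and higher without it (1.44).

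**Figure D2:**
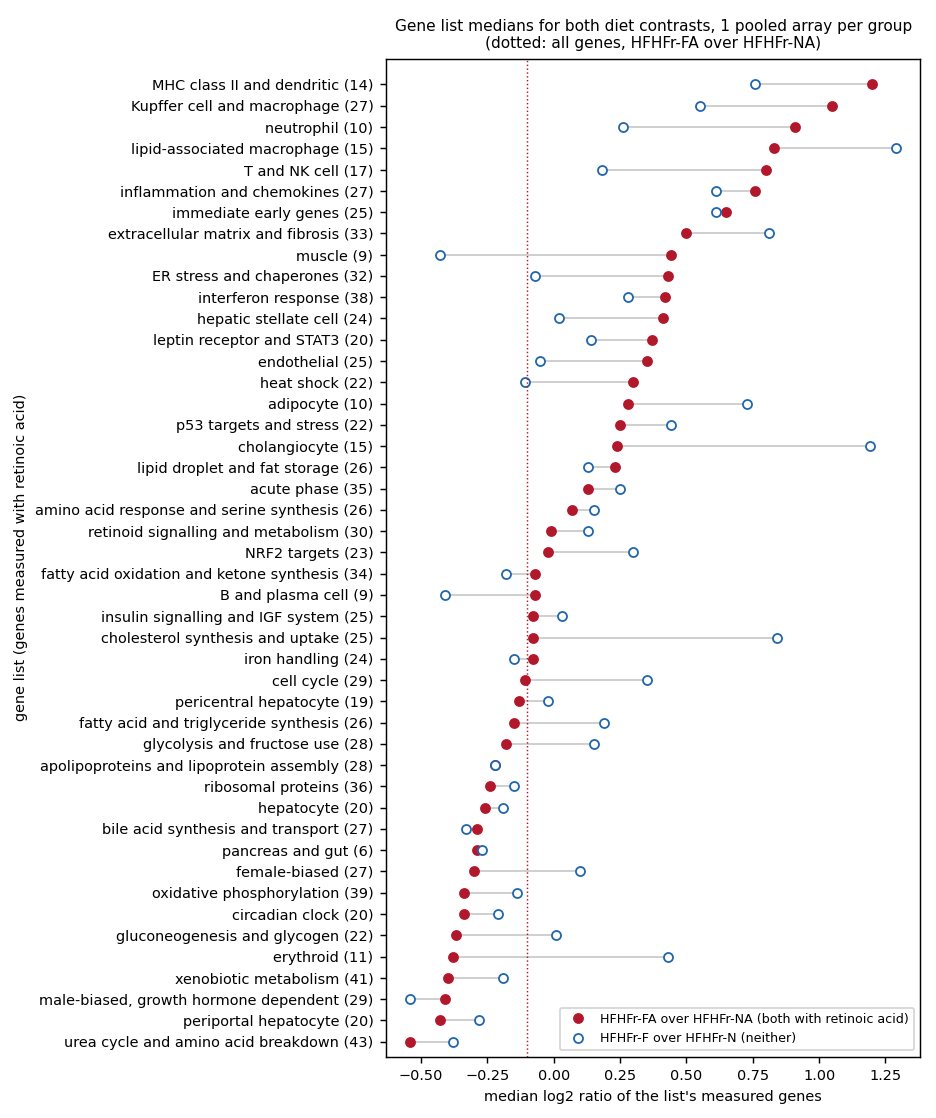
Each row is a gene list with at least 5 measured genes; the filled point is the median log2 ratio of HFHFr-FA over HFHFr-NA, the open point that of HFHFr-F over HFHFr-N, and the dotted line the median of all genes in the first (-0.10). Markers of MHC class II and dendritic cells (1.20) and of Kupffer cells (1.05) have the highest medians with retinoic acid, and urea cycle and amino acid breakdown (-0.54) the lowest; cholesterol synthesis and cholangiocyte markers have medians of 0.84 and 1.19 without retinoic acid and of -0.08 and 0.24 with it.

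Macrophage transcripts were higher in HFHFr-FA as a group. Of 27 markers of Kupffer cells, the resident macrophages of the liver, and of macrophages in general, 18 (66.7%) were at least 2-fold higher and 0 lower, with a median of 1.05. C1qa, a chain of complement C1q, read 1.92 on the control array, 1.90 on HFHFr-N, 1.44 on HFHFr-NA, 2.76 on HFHFr-F and 2.86 on HFHFr-FA. HFHFr-NA was thus the lowest of the 5 and the HFHFr-diet arrays the highest. Adgre1, the F4/80 antigen, had a ratio of 1.40 and Csf1r, the receptor for colony stimulating factor 1, one of 1.16. Without retinoic acid 2 of the 27 were at least 2-fold higher and 0 lower, with a median of 0.55, and C1qa and Adgre1 had ratios of 0.85 and 0.70. With the mean of all probes Adgre1 had 0.65 with retinoic acid. By contrast, 3 markers of resident Kupffer cells, chosen after their values were seen, had ratios below 0 without retinoic acid. Clec4f read 3.36, 3.68, 3.14, 3.49 and 4.15 in the same order, with ratios of 1.01 with and -0.19 without retinoic acid. Timd4, a receptor for dying cells, had ratios of 1.01 and -0.86, and Vsig4, a complement receptor, of 1.06 and -0.11. HFHFr-FA had the highest level of the 5 arrays for Clec4f, Timd4 and Vsig4. The summed level of the 27 markers, in units of the array's 75th percentile, was 192, 243, 191, 347 and 326. In pooled tissue RNA, more cells of a type and more RNA per cell cannot be told apart.

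Genes of antigen presentation through MHC class II, the complex that shows peptides to helper T cells, went the same way. Of 14 measured markers of MHC class II and dendritic cells, 8 (57.1%) were at least 2-fold higher and 0 lower, with a median of 1.20. Of the 14 ratios 2 were bounds, of genes not well above background on HFHFr-NA, which could count only as higher. H2-Aa, the alpha chain of the complex, read -0.40, -0.32, -0.82, 0.44 and 0.73. Cd74, the invariant chain that guides it, read 2.31, 2.69, 2.25, 3.27 and 3.70. For both, HFHFr-FA was the highest and HFHFr-NA the lowest of the 5. Ratios without retinoic acid were smaller for these genes, 0.76 for H2-Aa and 0.58 for Cd74. Itgax, the CD11c integrin, had ratios of 2.0 and 2.55 and was at -4.41 on the control array; another summary, the mean of all its probes, gave -0.02 for HFHFr-FA over HFHFr-NA.

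Macrophages that take up lipid in fatty liver are known for Trem2, a lipid receptor, Gpnmb and Cd63, which sit in lysosomal membranes. Of 15 measured genes of this list 7 (46.7%) were at least 2-fold higher, with a median of 0.83, against 9 of 16 and 1.29 without retinoic acid. With retinoic acid 2 of the 15 ratios were bounds, of genes not well above background on HFHFr-NA, which could count only as higher. Trem2 read -1.68 on the control array, -0.62 on HFHFr-N, 0.31 on HFHFr-NA, 2.54 on HFHFr-F and 1.15 on HFHFr-FA. Its ratio was therefore 0.83 with retinoic acid and 3.16 without. Cd63 had ratios of 1.01 and 3.19, and Gpnmb of at least 1.20 and at least 2.89. For these 3 genes HFHFr-F was the highest array and HFHFr-FA the next. Clec4f, Timd4 and Vsig4, chosen from the Kupffer cell and macrophage list after their values were seen, were highest on HFHFr-FA. The summed level of that whole list was higher on HFHFr-F (347) than on HFHFr-FA (326). Members within each list differed in which of these arrays was higher. In the Kupffer cell and macrophage list Adgre1 was higher on HFHFr-F (2.90 against 2.66 on HFHFr-FA) and C1qa on HFHFr-FA (2.86 against 2.76). Clec4d, listed with Trem2, was highest on HFHFr-FA (-2.28 against -2.81 on HFHFr-F).

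Of 27 measured genes of inflammation, chemokines and cytokines among them, 10 (37.0%) were at least 2-fold higher and 0 lower. A ratio above the median of all genes (-0.10) was found for 22, and 4 of the 27 ratios were bounds. All 27 genes were well above background on HFHFr-FA but 23 on HFHFr-NA. The genes with bounds could therefore count only as higher and above that median. Ccl2, which attracts monocytes, was 5.87-fold higher and read -2.58, -1.97, -2.60, 0.72 and -0.05. Ccl4 had ratios of 2.07 with and 2.37 without retinoic acid. Il1b, the cytokine interleukin-1 beta, had ratios of 1.59 and 0.03, and HFHFr-FA (-0.61) was its highest array. Among 38 interferon response genes, 10 (26.3%) were higher by 2-fold or more and 0 lower; Cxcl10, a chemokine for T cells, had a ratio of 1.69 and Gbp6, a guanylate-binding protein, of 1.62. For Gbp6 the HFHFr-NA array was low (-1.68 against 0.01 in control) and HFHFr-FA (-0.06) near the control. Ifit2 was at least 1.45 higher on the log2 scale, as it was not well above background in HFHFr-NA. After normexp correction the ratios of Il1b, Gbp6 and Ifit2 were under 2-fold, at 0.81, 0.92 and 0.43. Of 10 measured neutrophil markers 5 were at least 2-fold higher, and 2 of 17 T and NK cell markers, with 3 bounds in each of these lists. These bounds too were of genes not well above background on HFHFr-NA.

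The acute phase list, which holds mostly secreted liver proteins of inflammation, had 7 of 35 genes at least 2-fold higher and 0 lower, with a median of 0.13. The serum amyloid genes Saa1, Saa2 and Saa3 had ratios of 1.70, 1.81 and 1.72. Saa1 read 5.25, 6.88, 7.45, 8.18 and 9.15, so that HFHFr-FA was highest and the control lowest. Saa1 and Saa2 are near-identical copies, whose probes may read both transcripts. Lcn2, an iron-binding defence protein, had a ratio of 1.70. Hp, haptoglobin, was at 10.39 in HFHFr-NA and 10.29 in HFHFr-FA, and Orm2 and Crp had ratios of 0.12 and 0.13.

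**Figure D3:**
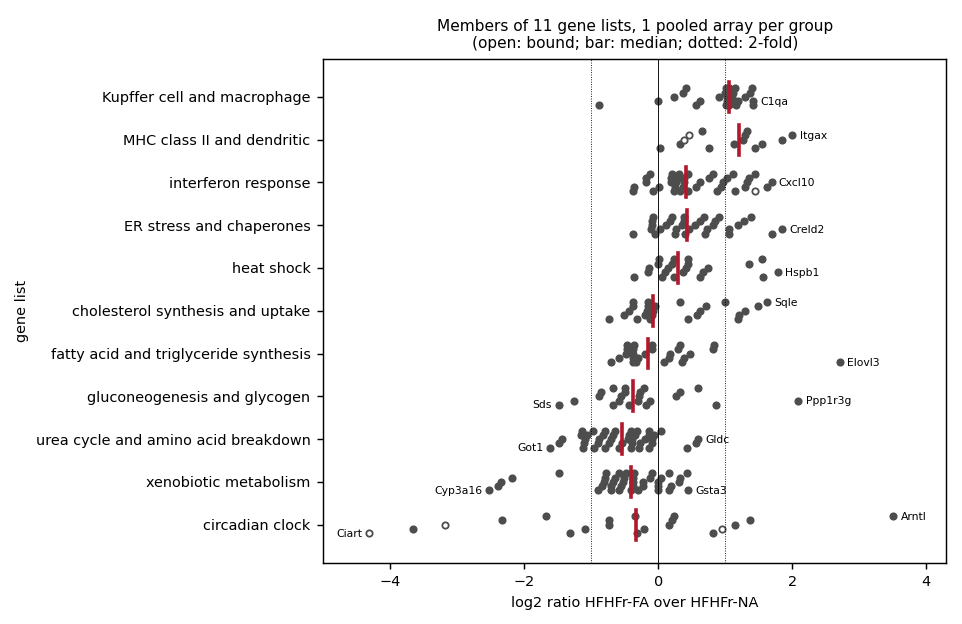
Each point is a measured gene of 1 of 11 lists at its log2 ratio of HFHFr-FA over HFHFr-NA; open points are bounds, red bars medians, dotted lines 2-fold, and the highest gene of each list is named, as is the lowest where it is at least 2-fold lower. Kupffer cell and MHC class II markers gather near and above 1, urea cycle and amino acid breakdown lies mostly below 0, and the clock list spreads from at least -4.31 (Ciart) to 3.51 (Arntl).

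Fibrillar collagen genes were among the higher ones. Of 33 measured matrix and fibrosis genes 7 (21.2%) were at least 2-fold higher, with a median of 0.50, and 5 of the 33 ratios were bounds. Without retinoic acid 13 of 35 were at least 2-fold higher, with a median of 0.81. Col1a1, a chain of type I collagen, read -2.26 on the control array, -1.29 on HFHFr-N, -1.74 on HFHFr-NA, 1.87 on HFHFr-F and 0.14 on HFHFr-FA, for ratios of 1.88 and 3.15. Col3a1 had ratios of 1.45 and 2.54, while Col6a1, a chain of type VI collagen, had 1.30 and 1.13. With the mean of all probes the ratio with retinoic acid was 0.99 for Col1a1 and 0.45 for Col3a1. Timp1, an inhibitor of matrix-degrading proteases, had -0.07 and 1.15. HFHFr-F was the highest array for Col1a1, Col3a1 and Timp1. Markers of stellate cells, which make this matrix, had a median of 0.41 with 2 of 24 genes at least 2-fold higher, 1 of them Spon2 (1.71), a secreted matrix protein whose highest array was the control (2.56).

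Genes of protein folding in the endoplasmic reticulum (ER) were higher in HFHFr-FA. Of 32 genes of this list 7 (21.9%) were at least 2-fold higher, 0 lower, and 29 had a ratio above the median of all genes (-0.10). The median of the list was 0.43, against -0.07 for the contrast without retinoic acid, where 1 of 32 was at least 2-fold higher. Creld2, a secreted ER stress protein, read 5.71 on the control array, 4.94 on HFHFr-N, 4.81 on HFHFr-NA, 4.93 on HFHFr-F and 6.66 on HFHFr-FA. The HFHFr-FA array was the highest, and the 3 other HFHFr arrays lay close together below the control. Manf, another secreted ER stress protein, had ratios of 1.38 with and -0.21 without retinoic acid, and Derl3, which helps to draw misfolded proteins out of the ER, 1.28 and -0.04. Sdf2l1, an ER chaperone component, had 1.19 and -0.63. Hspa5, the main ER chaperone (BiP), read 7.35, 6.72, 6.73, 6.43 and 7.46, so that its ratio of 0.73 put HFHFr-FA near the control. Chac1, an enzyme that breaks down glutathione, had a ratio of 1.69, and Ddit3, the stress factor CHOP, one of 0.84. Eif2ak3, the ER stress kinase PERK, was higher in both contrasts (1.06 and 1.02). Genes that were high on HFHFr-FA alone were also high on its slide alone, and the 2 cannot be told apart.

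The promoters of ER stress genes are known for the ER stress element, which is bound by ATF6 and XBP1 and was searched here as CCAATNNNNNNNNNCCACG on both strands in the 250 bases before each RefSeq start (build GRCm38.p6). Of 32851 promoters 37 (0.113%) held it, among them those of 9 of the 28 listed genes that had a promoter in the table. Of these 9 genes 2 were at least 2-fold higher in HFHFr-FA, and of the 19 without a match 4 were. The promoters of both higher genes, of Hspa5 and Syvn1 (0.90), a ubiquitin ligase of the ER, and of Canx, a lectin chaperone whose ratio was -0.10, are shown because they carry the same element beside different ratios. They are written 5′ to 3′ on the gene's strand, with the element in capitals, which reads as its reverse complement where it lies on the other strand.
Creld2, chr15:88819396-88819645 (plus strand): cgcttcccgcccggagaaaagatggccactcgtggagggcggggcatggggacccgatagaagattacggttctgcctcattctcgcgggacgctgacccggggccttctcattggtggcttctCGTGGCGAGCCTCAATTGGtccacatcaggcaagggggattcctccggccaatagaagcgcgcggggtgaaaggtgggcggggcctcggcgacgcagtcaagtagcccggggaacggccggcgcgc
Derl3, chr10:75893148-75893397 (plus strand): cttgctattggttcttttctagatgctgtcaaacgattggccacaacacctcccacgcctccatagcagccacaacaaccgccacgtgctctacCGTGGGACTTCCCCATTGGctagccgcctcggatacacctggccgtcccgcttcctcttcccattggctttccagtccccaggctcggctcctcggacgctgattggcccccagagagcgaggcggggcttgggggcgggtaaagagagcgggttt
Hspa5, chr2:34771840-34772089 (plus strand): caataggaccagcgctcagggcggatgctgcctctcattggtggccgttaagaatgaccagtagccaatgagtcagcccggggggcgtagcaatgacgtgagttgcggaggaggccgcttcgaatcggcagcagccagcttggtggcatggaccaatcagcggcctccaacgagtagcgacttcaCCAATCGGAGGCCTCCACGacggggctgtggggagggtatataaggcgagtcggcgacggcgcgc
Syvn1, chr19:6046326-6046575 (plus strand): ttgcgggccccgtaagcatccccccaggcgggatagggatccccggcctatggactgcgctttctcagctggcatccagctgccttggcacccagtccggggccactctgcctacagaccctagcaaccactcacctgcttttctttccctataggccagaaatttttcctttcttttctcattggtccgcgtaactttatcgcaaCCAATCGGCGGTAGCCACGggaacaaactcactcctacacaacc
Canx, chr11:50325674-50325923 (minus strand): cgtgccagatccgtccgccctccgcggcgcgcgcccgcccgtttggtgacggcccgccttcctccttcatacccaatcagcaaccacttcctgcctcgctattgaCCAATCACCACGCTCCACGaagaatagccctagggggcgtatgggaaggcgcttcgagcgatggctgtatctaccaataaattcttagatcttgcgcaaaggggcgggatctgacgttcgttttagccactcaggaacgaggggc
The element began 126 bases before the start in Creld2, 156 in Derl3, 65 in Hspa5, 44 in Syvn1 and 145 in Canx. A match describes these letters and does not show that a factor was bound.

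Of 22 heat shock genes, 4 were higher by 2-fold or more and 0 lower, with a median of 0.30. Hspb1, a small heat shock protein, read 3.71, 3.37, 3.05, 3.47 and 4.84, with ratios of 1.79 with and 0.10 without retinoic acid. Hspa1a and Hspa1b, near-identical copies of inducible HSP70, had ratios of 1.55 and 1.56 with it and 2.01 and 1.32 without. The mitochondrial chaperones Hspd1 and Hspe1 had ratios of -0.14 and -0.36. Immediate early genes, which answer growth and stress signals within minutes, held 9 of 25 at least 2-fold higher and 0 lower, and 11 of 24 without retinoic acid. With retinoic acid 5 of the 25 ratios were bounds, and a gene well above background on HFHFr-FA alone could count only as higher. Egr1, an immediate early transcription factor, read 0.84, -0.11, 0.22, 1.28 and 2.26. Jun had a ratio of 1.5, and Egr2 and Fosl2 had ratios of at least 2.40 and at least 2.06, which were 0.77 and 0.56 after normexp correction. Of 22 p53 target and stress genes 5 were at least 2-fold higher, among them Gdf15, a stress hormone (1.86), and Gadd45b (1.76), while Mdm2, a classical p53 target, had a ratio of -0.09.

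The clock list held the widest spread of ratios. The circadian clock is a loop in which ARNTL (BMAL1) and CLOCK switch on repressors of the Per, Cry and Nr1d families and output factors such as Dbp, so that Arntl and its targets peak at opposite times of day. Of 20 measured genes 7 (35%) were at least 2-fold lower and 3 (15.0%) at least 2-fold higher. Arntl was 11.4-fold higher and read -1.18 on the control array, -3.84 on HFHFr-N, -3.32 on HFHFr-NA, -1.24 on HFHFr-F and 0.19 on HFHFr-FA (probe at mm9 chr7:120456978-120457037). HFHFr-FA was the highest of the 5, and both arrays returned to normal diet were the lowest. After normexp background correction with quantile normalization the ratio of Arntl was 1.66 in place of 3.51. Dbp, a factor that drives daily rhythms of liver enzymes, was 12.7-fold lower, at 5.54, 6.88, 6.76, 4.91 and 3.10 (mm9 chr7:52965265-52965324). Ciart, a repressor of ARNTL, was at least 19.8-fold lower, at -2.60, -0.27, 0.58, -2.19 and -4.56. Nr1d1, the repressor REV-ERB alpha, was at least 9.04-fold lower, at 0.08, -0.11, -0.55, -2.87 and -3.94. Ciart and Nr1d1 were not well above background on HFHFr-FA, so their ratios are bounds. All 3 genes had their lowest level of the 5 arrays there.

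The other lower clock genes were Usp2 (-2.33), Noct (-1.68), Nr1d2 (-1.32) and Tef (-1.09), and the higher ones included Nfil3 (1.37), a repressor that opposes Dbp. Per1 and Per2 had ratios of -0.32 and -0.74, Clock of 0.81, and Cry1, a repressor of the loop, of at least 0.95. The contrast without retinoic acid ran in the same direction for the leading members, with -1.97 for Dbp, -1.91 for Ciart, -2.76 for Nr1d1 and at least 2.45 for Arntl, but Usp2 had -0.57 and Noct -0.45. The sources used here give no hour of sampling. ARNTL and CLOCK are known to bind the E-box CACGTG, which 6.02% of the 32851 promoters held within 250 bases before the start. Of 16 measured clock genes with a known promoter, 4 held it, and of these 2 were at least 2-fold lower and 0 higher; of the 12 without it 5 were lower and 2 higher. Cry1 (at least 0.95) and Per1 (-0.32) also held it and are not shown. The promoters of the 2 lower genes are given with the E-box in capitals. Lower genes were found with and without the E-box, and its part in these ratios was not tested.
Ciart, chr3:95882229-95882478 (minus strand): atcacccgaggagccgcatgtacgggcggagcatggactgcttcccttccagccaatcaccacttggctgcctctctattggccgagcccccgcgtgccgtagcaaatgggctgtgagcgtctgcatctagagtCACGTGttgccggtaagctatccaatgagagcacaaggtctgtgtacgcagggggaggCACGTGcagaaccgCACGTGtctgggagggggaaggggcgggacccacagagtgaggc
Tef, chr15:81802423-81802672 (plus strand): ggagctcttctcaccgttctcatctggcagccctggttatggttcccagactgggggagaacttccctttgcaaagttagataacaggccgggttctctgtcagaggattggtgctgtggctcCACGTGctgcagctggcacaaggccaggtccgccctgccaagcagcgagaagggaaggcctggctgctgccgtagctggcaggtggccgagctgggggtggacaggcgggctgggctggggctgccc
Ciart held 3 E-boxes in this window, and Tef 1 before each of its 2 starts, of which the first is shown.

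**Figure D4:**
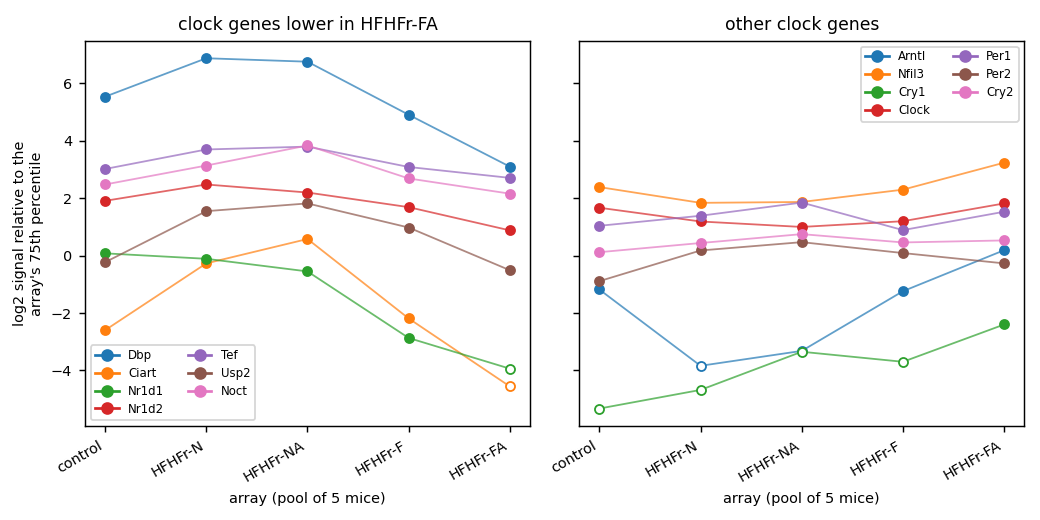
The level of 14 clock genes (log2 signal relative to the array's 75th percentile, y axis) is shown on each of the 5 arrays (x axis; pools of 5 mice); lines join points of 1 gene, and open points were not well above background. The 7 genes on the left are lower on HFHFr-FA than on HFHFr-NA, while Arntl, on the right, goes from -3.32 on HFHFr-NA to 0.19 on HFHFr-FA.

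Enzymes that break down amino acids and make urea were lower in HFHFr-FA. Of 43 genes 9 (20.9%) were at least 2-fold lower and 0 higher, with a median of -0.54. A ratio above the median of all genes (-0.10) was found for 7. Got1, cytosolic aspartate aminotransferase, read 5.98 on the control array, 4.94 on HFHFr-N, 7.14 on HFHFr-NA, 4.24 on HFHFr-F and 5.52 on HFHFr-FA. HFHFr-NA was the highest of the 5 and HFHFr-FA lay between the control and HFHFr-N. Cps1, the entry enzyme of the urea cycle, read 7.34, 6.88, 7.95, 5.97 and 6.86, and Agxt, which detoxifies glyoxylate, 8.09, 7.89, 8.82, 6.85 and 7.38. For both genes HFHFr-NA was again the highest and HFHFr-F the lowest. The ratio of Cps1, -1.09, was -0.83 with cyclic loess, -0.90 with quantile normalization and -0.80 after normexp correction. Ass1, the third enzyme of the cycle, had a ratio of -1.07, and Arg1, the last step, of -0.82. Otc had -0.14 and Gldc, of the glycine cleavage system, 0.60. Without retinoic acid 1 of 43 was at least 2-fold lower, and the median was -0.38. Several of these enzymes mark hepatocytes near the portal vein: 5 of 20 periportal markers were at least 2-fold lower, with a median of -0.43, among them Etnppl (-2.10), a phospholyase of phosphoethanolamine. Of 19 pericentral markers 1 was, with a median of -0.13.

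Asns, asparagine synthetase, a target of the amino acid response factor ATF4, was 6.70-fold lower with retinoic acid and higher without it. Its levels were 1.27, -1.33, 1.80, 0.10 and -0.95, so that HFHFr-N and HFHFr-FA were the 2 low arrays. Other known ATF4 targets differed in this: Atf3 and Chac1 were higher in HFHFr-FA, and Trib3 had ratios of -0.08 and -0.48. Of 26 genes of the amino acid response and serine synthesis, 4 were at least 2-fold higher and 3 lower, with a median of 0.07.

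Drug-metabolising genes of the Cyp3a family were lower. Among 41 genes of xenobiotic metabolism 5 (12.2%) were at least 2-fold lower and 0 higher, and all 5 were Cyp3a genes. Cyp3a11, the main inducible member in mouse liver, read 8.11 on the control array, 7.95 on HFHFr-N, 6.74 on HFHFr-NA, 6.41 on HFHFr-F and 4.56 on HFHFr-FA, a 4.55-fold difference between the last and HFHFr-NA. HFHFr-FA was the lowest array, with a log2 ratio to the control of -3.55. Cyp3a16, Cyp3a44, Cyp3a41a and Cyp3a25 had ratios of -2.52, -2.39, -2.34 and -1.48; these are close paralogs whose probes may read each other's transcripts. Without retinoic acid the ratios of these 5 genes ran from -0.95 (Cyp3a25) to -1.76 (Cyp3a16).

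The opposite was seen for Cyp2b9 and Cyp2b13, another pair of close paralogs that are more active in female liver. Cyp2b9 was 4.59-fold higher in HFHFr-FA and read 1.46, 4.51, 2.91, 6.05 and 5.10. Cyp2b13 was 5.15-fold higher, at -0.52, 2.41, 0.53, 3.90 and 2.89. Both were lowest in the control, highest in HFHFr-F, and lower with retinoic acid than without it on the same diet; a second probe gave ratios of 2.64 and 2.38. Of 27 genes known to be higher in female liver, 2 had a ratio of 2-fold or more upward and 5 downward, 3 of them Cyp3a genes counted above. Of 29 growth hormone dependent genes of male liver, 2 were higher and 2 lower by 2-fold or more. The 2 higher ones were Socs2, a feedback inhibitor of growth hormone signalling, and Elovl3, which elongates fatty acids. Socs2 read 1.25, 0.08, -0.88, -0.07 and 1.72 and Elovl3 5.41, 3.89, 2.97, 4.05 and 5.68. For both, HFHFr-NA was the lowest and HFHFr-FA the highest array, near the control, and their ratios without retinoic acid were -0.16 and 0.16.

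Hsd3b4 and Hsd3b5, steroid-metabolising enzymes, showed the largest gap between the contrasts. They are close paralogs whose probes may read each other's transcripts. Hsd3b4 read 2.86 on the control array, 2.23 on HFHFr-N, 0.65 on HFHFr-NA, -3.08 on HFHFr-F and 1.24 on HFHFr-FA. Its ratio was -5.32 without retinoic acid and 0.59 with it. Hsd3b5 had 0.65 with retinoic acid and a bound of -5.76 without, as it was not well above background on HFHFr-F. Slco1a1, a male-biased uptake transporter, had 0.38 and -2.80; its other probe gave 0.10 with retinoic acid. HFHFr-F was the lowest array for all 3 genes. Both arrays with retinoic acid were also below the control, with log2 ratios to it of -2.21 for HFHFr-NA and -1.62 for HFHFr-FA in Hsd3b4, -2.21 and -1.56 in Hsd3b5, and -0.76 and -0.38 in Slco1a1. Slc22a7, an organic anion transporter, was 5.59-fold higher with retinoic acid (2.13, 1.77, 1.20, 1.66 and 3.68) and had -0.10 without.

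Cholesterol synthesis divided into genes that were higher with diet in both contrasts and genes that were higher without retinoic acid alone. Of 25 genes, 5 (20.0%) were higher by 2-fold or more and 0 lower, with a median of -0.08, against 10 of 25 and 0.84 without retinoic acid. Sqle, squalene epoxidase, read -0.34, -1.11, 0.25, 2.01 and 1.88, for ratios of 1.63 and 3.12. The other 4 higher genes, Fdps (1.49), Cyp51 (1.30), Idi1 (1.20) and Mvd (1.19), had ratios of 1.68, 1.31, 1.64 and 1.38 without retinoic acid; another Idi1 probe gave -0.15 with it. In contrast Msmo1 had -0.13 with and 1.51 without, Mvk -0.10 and 1.35, and Dhcr7 -0.37 and 1.24. HFHFr-NA was higher than HFHFr-N for some genes of both kinds. It was at 0.25 against -1.11 for Sqle, 2.16 against 1.73 for Idi1, 4.37 against 3.75 for Msmo1 and -0.71 against -1.62 for Mvk. Of the first kind, Fdps (0.39 against 0.60) and Cyp51 (-0.79 against -0.74) were not higher in HFHFr-NA. The ratio of Cyp51 was 0.98 after normexp correction, and that of Idi1 0.52 with the mean of all probes.

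Of 26 genes of fatty acid and triglyceride synthesis, Elovl3 alone was at least 2-fold higher in HFHFr-FA and 0 were lower; without retinoic acid 4 were higher. Thrsp, a nuclear protein that promotes lipogenesis, read 1.63, 3.33, 3.28, 6.69 and 2.92, so that HFHFr-F stood apart and its ratios were -0.36 with and 3.36 without retinoic acid. Fasn, fatty acid synthase, had 0.30 and 1.30, and Acaca, acetyl-CoA carboxylase, -0.31 and 0.90. Scd1, the stearoyl-CoA desaturase, was low on both arrays with retinoic acid (5.64 in HFHFr-NA and 5.26 in HFHFr-FA) and at 7.74 to 8.29 on the 3 arrays without. Mogat2, an acyltransferase of triglyceride synthesis, read -4.48, -2.57, -1.72, -0.49 and -3.16, for ratios of -1.44 and 2.07; the first was -0.47 after normexp correction. Among 26 genes of lipid droplets 1 was at least 2-fold higher, Hilpda (1.24), an inhibitor of triglyceride breakdown; Plin2, the coat protein of droplets, had 0.68 and Cidec, which fuses them, 0.32.

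Fuel use genes gave few ratios of 2-fold or more. Of 34 genes of fatty acid oxidation and ketone synthesis 3 were at least 2-fold higher: Pdk4, Fgf21 (1.59), a hormone of fasting and stress, and Acot2 (1.35), a mitochondrial thioesterase. Cpt1a, which admits fatty acids to mitochondria, had -0.43. The 39 measured genes of oxidative phosphorylation had a median of -0.34, with 0 at least 2-fold apart and 4 above the median of all genes (-0.10). Ppp1r3g, a glycogen-targeting subunit of protein phosphatase 1, was 4.27-fold higher, at 0.98, 0.24, 1.19, 0.21 and 3.29, with HFHFr-FA the only high array. Gys2, liver glycogen synthase, was at -1.26 and Sds, which turns serine into pyruvate, at -1.48; for both HFHFr-NA was the highest array (7.80 and 5.92). G6pc, glucose-6-phosphatase, had 0.59. Slc2a5, the fructose transporter GLUT5, had -1.24 and Khk, ketohexokinase, -0.14. Of 25 genes of insulin signalling and the IGF system, Igfbp1 was at least 2-fold higher and Pik3r1, a regulatory subunit of PI3 kinase, at least 2-fold lower (-1.08, and -0.73 after normexp correction). Igfbp2 had ratios of -0.22 with and -1.94 without retinoic acid.

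Genes that retinoic acid is known to induce were examined on all 5 arrays. Cyp26a1 read 0.62 on the control array, 0.54 on HFHFr-N, 1.94 on HFHFr-NA, -1.86 on HFHFr-F and -0.75 on HFHFr-FA (mm9 chr19:37775566-37775625). On each diet the array with retinoic acid was higher than the one without, and the array on the HFHFr diet was lower than the one on normal diet both with retinoic acid (6.44-fold, ratio -2.69) and without it (-2.40). Cyp26b1, the related enzyme, was at 3.42 in HFHFr-NA and 2.90 in HFHFr-FA, against 0.36 to 0.93 on the 3 arrays without retinoic acid. Rarb, retinoic acid receptor beta and itself a target, read -0.32, 0.06, 1.25, 0.42 and 0.34, so that HFHFr-NA was high and HFHFr-FA within the range of the untreated arrays. Of 30 measured genes of this list 1 was at least 2-fold higher, Aldh1a3 (1.19, and 0.21 after normexp correction), a retinaldehyde dehydrogenase, and 1 lower, Cyp26a1.

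In bile acid metabolism Cyp2c70, which makes muricholic acids in the mouse, was at least 2-fold higher (1.82) and Slco1a4, a bile acid uptake transporter, at least 2-fold lower (-1.87), out of 27 genes. Cyp7a1, which limits the making of bile acids, had -0.97 with and 0.54 without retinoic acid. Nr0b2, the repressor SHP, had -0.98 and -1.26. Tfrc, the transferrin receptor, was 4.92-fold lower and read 0.34, 0.67, 1.68, 0.70 and -0.62, with HFHFr-NA highest and HFHFr-FA lowest; it was the only 1 of 24 iron genes at least 2-fold apart. Hamp, hepcidin, had -0.21 with and -2.21 without retinoic acid. Of 29 cell cycle genes 1 was at least 2-fold higher and 3 lower, among them Ccne1, cyclin E1 (-1.63, and -0.85 after normexp correction), whereas 7 of 30 were higher without retinoic acid.

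Of 15 measured markers of bile duct cells 1 was at least 2-fold higher in HFHFr-FA, Anxa2 (1.16, and 0.93 after normexp correction), whereas 11 of 17 were in the contrast without retinoic acid. The summed level of this list was 41.9 on the control array, 46.1 on HFHFr-N, 39.8 on HFHFr-NA, 122 on HFHFr-F and 44.1 on HFHFr-FA. Erythroid markers summed to 432, 471, 357, 666 and 281, hepatocyte markers to 10200, 10200, 10700, 8860 and 8960, and adipocyte markers to 236, 463, 212, 571 and 392. The part of these lists in the ratios above was not tested.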

How the data were processed

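Liver RNA of 5 pooled mice per group was hybridised to 1-colour Agilent 4x44K mouse arrays, 1 per group. The deposited scanner intensity values (processed signal) came from Feature Extraction 10.5.1.1 with mm9 probe positions, per the file headers. The deposited value table holds the ratio of that signal to a constant of each array (column medians 0.0675 to 0.0744) and gave the same counts. Here the log2 signal was centred by subtracting the 75th percentile of all of each array's transcript spots. Spots of a probe were then averaged, leaving out 60 to 96 outlier spots per array. The brightest of a gene's probes stood for it. Of 41174 probes 24844 were named through RefSeq and the others kept the file's name; 1180 of 1204 listed symbols matched. A gene was measured when well above background on 1 of the 2 arrays at least. Where it was not on the other array, the ratio is a bound. That bound was taken against the lowest signal well above background there, or against the gene's own signal where that was higher. A gene with a bound could be called in 1 direction only. Genes named are the 12 highest and 12 lowest ratios, the 5 highest and lowest bounds, up to 4 members with the largest ratio of each of 46 lists, the 6 highest and 6 lowest differences between the diet ratios, key genes and further list members chosen after their values were seen. Some genes meeting this rule are not reported here. The members, lists and key genes were chosen with earlier results of these data known. Ratios and counts were tested on simulated data. Python 3.11.15, pandas 2.3.3, R 4.3.3 and limma 3.58.1 were used.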

Additional observations from a re-analysis of the deposited data

Results flagged for a closer look

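Among the genes named, 6 were at least 2-fold apart in opposite directions in the diet contrasts with and without retinoic acid. The difference between the contrasts was not tested, since each group has 1 array. Asns had a log2 ratio of -2.74 with retinoic acid and 1.44 without. Mogat2 had -1.44 and 2.07, with its highest level on HFHFr-F (-0.49). Rrm2, a subunit of ribonucleotide reductase, had -1.36 and 1.01 and was near background, at -2.91 on HFHFr-FA. Taf15, an RNA-binding protein, had -1.14 and 3.06; HFHFr-N was its only low array (-2.04), and its other probe gave -0.91 with retinoic acid. Cfd, the complement protease adipsin, had 1.56 and -1.13. Vps13a, a lipid transfer protein, had 1.61 and -1.55 on its brightest probe, while its other 3 probes gave 0.50, -0.38 and 0.21 with retinoic acid.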

How the results depend on the processing

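The counts of 492 higher and 375 lower genes became 162 and 80 after normexp background correction with quantile normalization, 1227 and 1447 with no detection filter, and 1438 and 1537 at 1.5-fold. They stayed within 1.5 times under median centring (534 and 344), cyclic loess (552 and 343), quantile normalization (509 and 358), the deposited values, detection on both arrays (392 and 266), the mean of all probes (460 and 357) and without genes in bright patches (478 and 348). The cause of the shifts was not tested, other than the filter and the fold, which change what is counted. The direction of a list median was taken relative to the median of all genes. A change was counted only for lists that lay over 0.1 from it as reported. Lists nearer to it changed side uncounted, such as NRF2 targets (from -0.03 to 0.12 relative to it) and cell cycle genes (from -0.04 to 0.07). By this rule 41 of 46 list medians counted as keeping their direction under all 9 alternatives run on them. Those that did not, with their medians before that of all genes (-0.10 as reported, 0.00 with loess, -0.03 with quantile, -0.02 with normexp and -0.09 with no filter) is subtracted, were apolipoproteins (0.05 with cyclic loess, -0.01 with quantile and with normexp), ribosomal proteins (0.04 with loess, -0.03 with quantile), hepatocyte markers (0.06 with loess, 0.04 with quantile, -0.01 with normexp), and female-biased genes and pancreas and gut markers (both -0.07 with no filter). The Kupffer cell median ran from 0.96 to 1.18, MHC class II from 0.74 to 1.28, ER stress from 0.40 to 0.60, the clock list from -0.54 to -0.19, urea and amino acid breakdown from -0.58 to -0.35, oxidative phosphorylation from -0.34 to -0.08 and cholesterol synthesis from -0.08 to 0.20. Of 126 named genes at least 2-fold apart, 40 were under 2-fold after normexp correction, 16 with the mean of all probes, 8 with quantile normalization, 7 with cyclic loess and 2 with median centring. With the mean of all probes Car3 turned to -0.41 and Itgax to -0.02. No paired analysis was possible because each group has 1 array. Slide and group cannot be told apart, mice were pooled, and at most 49.4% of spots on an array were well above background.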

Other observations

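Several of the largest ratios belong to genes outside the lists. Chka, choline kinase, the entry enzyme of phosphatidylcholine synthesis from choline, had a ratio of 2.62 and read 0.73 on the control array, -0.29 on HFHFr-N, -0.48 on HFHFr-NA, 1.01 on HFHFr-F and 2.14 on HFHFr-FA. Serpina7, thyroxine-binding globulin, had 2.45, with HFHFr-F (2.78) and HFHFr-FA (1.84) high and HFHFr-NA (-0.61) low. The stress ligand genes Raet1a and Raet1e, which activate NK cells through NKG2D, were lower, at -2.99 and -2.60. Raet1a read 1.80, 1.54, 2.81, 0.38 and -0.19 in the same order, so that both arrays still on the HFHFr diet were the lowest. Upp2, a liver uridine phosphorylase, had -2.44 and was lowest on HFHFr-FA (0.63) and highest on HFHFr-NA (3.07). Lrtm1 (-3.03) was low on HFHFr-FA (-2.29) and between -0.28 and 0.74 on the 4 other arrays.

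Single arrays decided some bounds. Dlk1, an imprinted Notch-like gene, was well above background on HFHFr-FA alone (-1.43), for a ratio of at least 2.32. Syt14 was at -0.41 on HFHFr-NA and from -5.34 to -5.77 on the others, a bound of -3.32. The spots of Rasgrp2 on HFHFr-FA and of Slc25a34 and Lefty1 on HFHFr-NA lay in bright patches, where neighbouring dim spots were also raised, and their ratios (at least 2.17, a bound of -2.92, and -2.57) rest on those spots.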
